A study of Sus scrofa with 12 samples.

Results

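The liver makes most of the plasma proteins that clot blood, dissolve clots and carry out complement lysis, and the genes for these proteins were followed here in growing pigs that differed in feed efficiency. A list of 48 such genes was set against the symbols of the array, and 43 of them were found among its 13755 named genes. F2, F7, CFB, CFD and SERPING1 had no probe set under a single symbol and were not analysed here. The 43 genes comprised 19 of coagulation, 2 of fibrinolysis (PLG and SERPINF2) and 22 of complement. Each was read through the probe set with the highest mean over all pigs.

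In coagulation, serine proteases activate each other in sequence until thrombin turns fibrinogen into fibrin, with inhibitors acting at most steps and plasmin later dissolving the fibrin. In complement, the classical, lectin and alternative routes converge on C3, after which the terminal components assemble into a pore in the target membrane, while soluble and membrane-bound regulators protect host cells. Hepatocytes secrete most components of both systems, whereas endothelial cells supply factor VIII, von Willebrand factor and thrombomodulin.

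Liver was sampled after feeding at day 140 from 12 crossbred pigs, offspring of Large White × Landrace sows and Hylean Maxgro sires, and each pig had its own Affymetrix snowball array. Residual feed intake (RFI) is the feed that an animal eats above or below what its growth and body composition predict. By the labels, 6 pigs were low RFI (high feed efficiency) and 6 were high RFI (low feed efficiency), with 3 males and 3 females in each class. All pigs ate the same diet without restriction. The paper chose same-sex siblings divergent in RFI, but litter was not given for single pigs.

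Values were RMA-normalised log2 intensities, so that 1 unit is a doubling, and array medians lay between 3.48 and 3.53. Intensities of different probe sets are not amounts of mRNA. They were ranked to choose probe sets and to describe genes as bright or dim, not to compare amounts between genes. The tissue was whole liver. Of 9 hepatocyte marker genes on the array, 8 had means between 10.25 (APOA1) and 14.04 (ALB), but AHSG, which hepatocytes also express, was at 1.59 in low-RFI and 1.74 in high-RFI pigs. Mean intensity over the 9 markers ranged from 11.43 to 11.56 in low-RFI pigs and from 11.42 to 11.53 in high-RFI pigs. Because bulk tissue was used, fewer cells of a type and less RNA per cell cannot be told apart.

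Neither coagulation nor complement genes differed as called by limma between the RFI classes. None of the 43 genes (0) reached a Storey q-value under 0.30, against 0.0436% of all named genes and 0.0314% of all probe sets, and the smallest q was 0.540. Of the 43 genes, 27 were higher and 16 lower on average in low-RFI pigs, whereas 44.9% of all named genes were higher and 55.1% lower. With the background of GC-rich control probe sets, described with its values after the single pigs, as a covariate, 18 of the 43 genes were higher and 25 lower, against 48.4% and 51.6% of all named genes. Their median difference (low RFI minus high RFI, in log2 units) was 0.05 against −0.02 over all named genes. These signs follow the sample labels. The paper also counts a change as positive when a gene is higher in low-RFI pigs. Yet it reports FOXA1 as higher and IL6ST as lower in them, the reverse of the signs found here. Whether the labels or the paper have the classes swapped cannot be told, so every direction given here holds by the labels only. At an unadjusted p under 0.05, 3 genes were higher (C5, C6 and CFI) and 1 lower (PROC), together 9.30% of the 43 genes. Of all named genes, 4.68% were higher and 4.45% lower at that p, together 9.13%, so the share in the set was near the background. By system, 13 coagulation genes were higher and 6 lower (median difference 0.07), both fibrinolysis genes were lower (median −0.09), and 14 complement genes were higher and 8 lower (median 0.04). An unadjusted p under 0.05 was found for 1 of 19 coagulation, 0 of 2 fibrinolysis and 3 of 22 complement genes. The difference between the systems was not tested. With the GC-rich background as a covariate, all 3 medians were below 0, at −0.017 for coagulation, −0.049 for fibrinolysis and −0.024 for complement, and in females alone the complement median was −0.032. No gene of the set (0) separated the classes without overlap, against 0.378% of all named genes. The median standard error of a difference was 0.11.

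**Figure D1:**
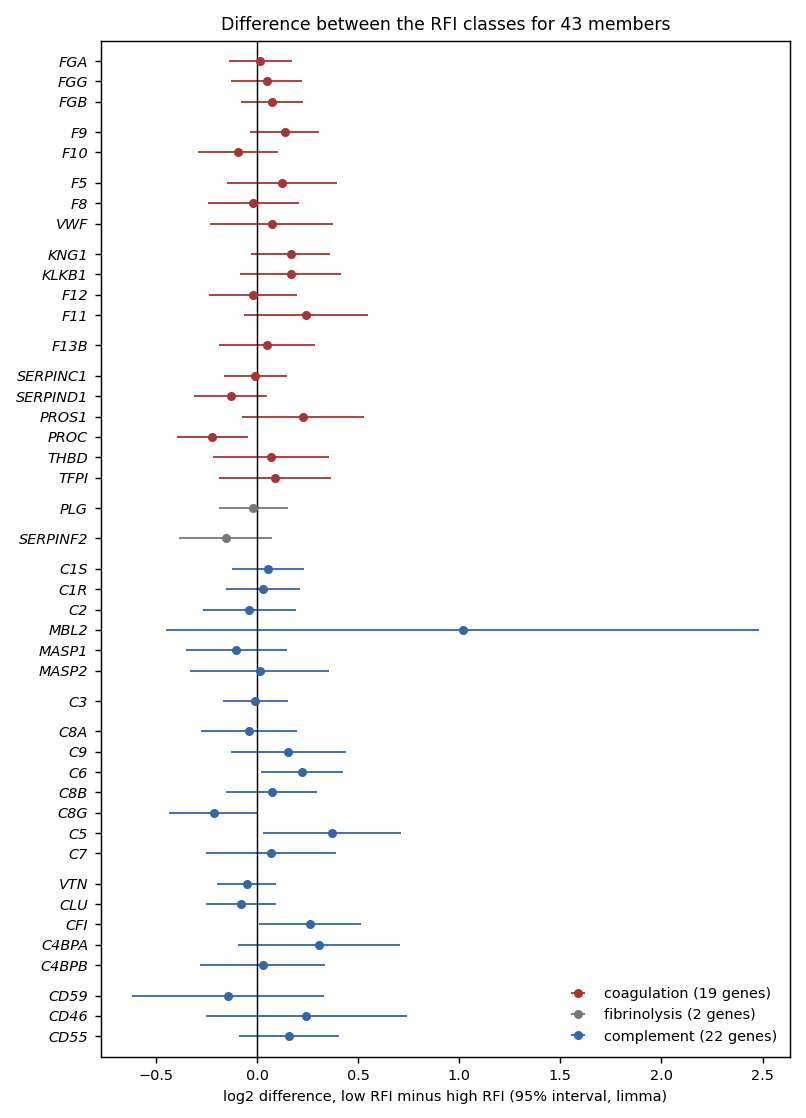
Difference of each of the 43 genes between low-RFI and high-RFI pigs (x axis, log2 units, low minus high) by role (y axis); points are limma estimates and bars 95% intervals from 6 pigs per class. The intervals of PROC, C5, C6 and CFI lie off 0, and that of MBL2 is far wider than the others, from −0.45 to 2.48.

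Fibrinogen was nearly equal in both classes. Its 3 chains are encoded by FGA, FGB and FGG, which lie side by side in the RefSeq gene order. FGA ranged from 12.91 to 13.09 in low-RFI and from 12.91 to 13.05 in high-RFI pigs, a difference of 0.02 with a 95% interval from −0.14 to 0.17. FGB averaged 12.62 ± 0.05 in low-RFI and 12.55 ± 0.06 in high-RFI pigs (SD, n = 6 each), and FGG averaged 12.93 ± 0.05 in low-RFI and 12.88 ± 0.13 in high-RFI pigs. The intervals for FGB (−0.08 to 0.23) and FGG (−0.13 to 0.22) also included 0. A difference in intensity of more than about 0.23 for any chain thus lay outside these intervals. Whether intensity still followed the amount of mRNA at so high a level was not tested.

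Among the vitamin K-dependent factors, F9 (factor IX) had a difference of 0.14 (SE 0.08, limma q = 0.652, exact permutation p = 0.0368) and F10 (factor X) one of −0.09 (SE 0.09). In 3 low-RFI pigs F9 was above every high-RFI pig. The cofactors F5, F8 and VWF differed by 0.12, −0.02 and 0.07, with standard errors of 0.13, 0.11 and 0.14. Of 5 probe sets of F8, 4 were higher in low-RFI pigs. One of these, nearly as bright as the one used (mean 6.46 against 6.58), differed by 0.17 (SE 0.10, limma q = 0.647). F8 and VWF are endothelial in origin, and the mean over 8 endothelial markers ranged from 6.96 to 7.54 in low-RFI and from 6.98 to 7.52 in high-RFI pigs.

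The contact system starts the intrinsic route, and kininogen (KNG1) carries prekallikrein (KLKB1) and factor XI (F11) in plasma. KNG1 averaged 12.14 ± 0.16 in low-RFI and 11.98 ± 0.08 in high-RFI pigs (SD, n = 6 each), with 5 low-RFI pigs above every high-RFI pig and the other, P324, below them all. Its difference was 0.17 (SE 0.09, limma q = 0.639, exact permutation p = 0.0455). KLKB1 had a difference of 0.17 (SE 0.12), F11 one of 0.24 (SE 0.14) and F12 one of −0.02 (SE 0.10). F13B, a carrier subunit in fibrin cross-linking, was at 1.83 in low-RFI and 1.78 in high-RFI pigs, under the median of every array.

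PROC encodes protein C, the vitamin K-dependent protease that inactivates factors V and VIII. PROC ranged from 5.38 to 5.63 with a median of 5.49 in low-RFI pigs, against 5.61 to 5.84 with a median of 5.72 in high-RFI pigs. In 5 low-RFI pigs PROC was below every high-RFI pig, and the remaining one (P308) exceeded the lowest 2 high-RFI pigs. The difference was −0.22 (SE 0.08, limma q = 0.540, exact permutation p = 0.00866), or 1.17-fold lower intensity in low-RFI pigs. It was nearly the same in females (−0.23) and in males (−0.21), but neither sex alone reached an unadjusted limma p under 0.05 (0.125 and 0.170). Its unadjusted limma p stayed under 0.05 in 12 of 12 fits that each left out 1 pig, with differences from −0.25 to −0.20. That p was 0.0689 after a filter on SD and 0.0563 with the GC-rich background as a covariate.

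No other inhibitor of coagulation had an unadjusted p under 0.05. PROS1, the protein S cofactor of protein C, had a difference of 0.23 (SE 0.14), and SERPIND1 (heparin cofactor II) one of −0.13 (SE 0.08). Antithrombin, the main inhibitor of thrombin and factor Xa, is encoded by SERPINC1 and averaged 12.71 ± 0.08 in low-RFI and 12.72 ± 0.02 in high-RFI pigs (95% interval of the difference −0.16 to 0.15). TFPI and THBD, inhibitors found mainly on endothelium, differed by 0.09 (SE 0.13) and 0.07 (SE 0.13), and TFPI lay under the median of every array. In fibrinolysis, plasminogen (PLG) differed by −0.02 (SE 0.08) and SERPINF2, the plasmin inhibitor alpha-2-antiplasmin, by −0.16 (SE 0.11).

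In complement, C3, on which all routes converge, averaged 13.34 ± 0.05 in low-RFI and 13.35 ± 0.09 in high-RFI pigs (SD, n = 6 each). The 95% interval of its difference, −0.17 to 0.15, was among the narrower ones of the set. C1R and C1S, the proteases of the C1 complex, differed by 0.03 (SE 0.09) and 0.05 (SE 0.08). C2, which the C1S protease cleaves, differed by −0.04 (SE 0.11). MASP1 and MASP2, the proteases of the lectin route, differed by −0.10 (SE 0.12) and 0.01 (SE 0.16).

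MBL2 encodes mannose-binding lectin, which binds sugars on microbes and carries the MASP proteases. It varied more than any other gene of the set. In low-RFI pigs it was 10.22, 7.56 and 10.08 in the males P307, P308 and P309, and 7.29, 9.73 and 10.48 in the females P310, P323 and P324. In high-RFI pigs it was 7.57, 6.94 and 7.30 in the males P301, P302 and P303, and 7.55, 10.19 and 9.71 in the females P304, P317 and P318. Thus 6 pigs lay between 6.94 and 7.57 and 6 between 9.71 and 10.48, with no pig between. Both classes were on both sides, with 4 low-RFI and 2 high-RFI pigs in the upper range.

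The gap in MBL2 was 2.14 log2 units, or 4.41-fold, and the whole range 11.7-fold. Only 2 of the 13755 named genes, MBL2 included, had a gap at least this large with 3 or more pigs on each side, and the next gene of the set was MASP2 with 0.34. A dimmer probe set of MBL2 divided the same pigs in the same way, with 3.74 to 4.60 in the upper 6 pigs and 2.26 to 2.36 in the lower 6. The class difference of 1.02 had a standard error of 0.68 (limma q = 0.677, 95% interval −0.45 to 2.48). It was 2.02 in males and 0.02 in females, but the interaction of sex and class was not called (limma q = 0.962).

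**Figure D2:**
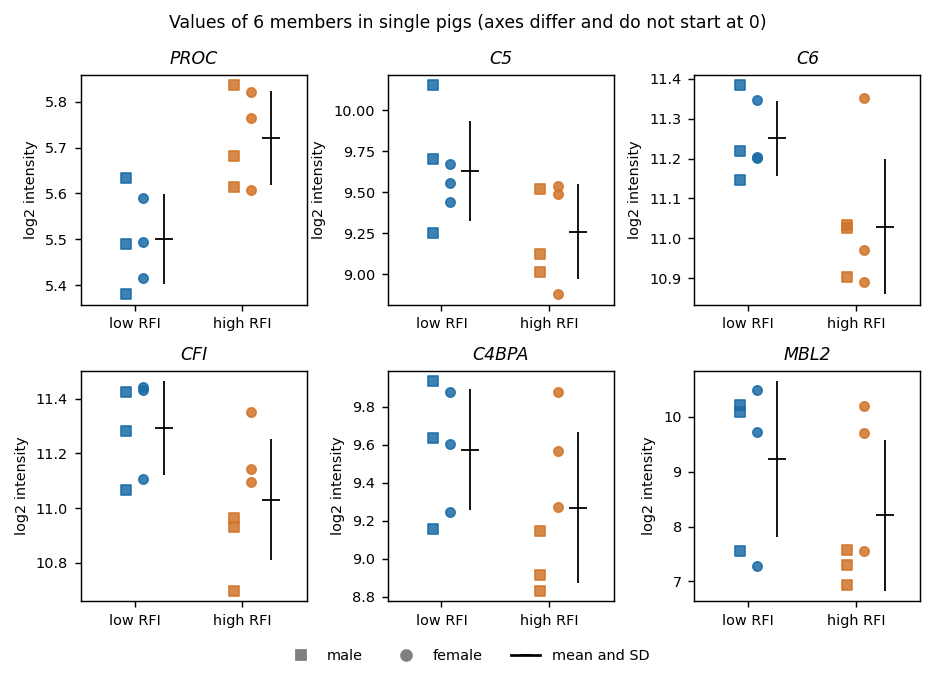
Log2 intensity (y axes) of PROC, C5, C6, CFI, C4BPA and MBL2 in each pig, low RFI left and high RFI right, with males and females marked and the class means as lines. The classes overlap in all 6 genes, and MBL2 leaves no pig between 7.57 and 9.71.

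C5 and C6 belong to the terminal pathway. C5, whose cleavage starts pore formation and releases an inflammatory peptide, ranged from 9.25 to 10.16 with a median of 9.62 in low-RFI pigs, against 8.88 to 9.54 with a median of 9.31 in high-RFI pigs. In 4 low-RFI pigs C5 was above every high-RFI pig. The difference was 0.37 (SE 0.16, limma q = 0.586, exact permutation p = 0.0584), or 1.29-fold, the widest among the terminal components by the probe sets used. It was 0.25 in females and 0.48 in males.

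C6, which binds C5b, ranged from 11.15 to 11.38 with a median of 11.21 in low-RFI pigs, against 10.89 to 11.35 with a median of 10.998 in high-RFI pigs. The classes overlapped only through P317, a high-RFI female at 11.35, since the other high-RFI pigs were at or below 11.03. The difference in C6 was 0.22 (SE 0.09, limma q = 0.580, exact permutation p = 0.0260). Without P317, a pig singled out here by its own C6 value, the difference was 0.29 (SE 0.08, q = 0.236), under the threshold of 0.30. Without that pig 3.74% of all named genes were called, against 0.0436% with all pigs.

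C7, the neighbour of C6 in the terminal complex, differed by 0.07 (SE 0.15), and C9, which forms the wall of the pore, by 0.15 (SE 0.13). The other probe set of C9 (mean 10.72) differed by 0.39 (SE 0.23, limma q = 0.652). The differences of the 3 subunits of C8 varied in sign. C8A differed by −0.04 (SE 0.11) and C8B by 0.07 (SE 0.10), whereas C8G, a lipocalin linked to C8 alpha, averaged 10.45 ± 0.20 in low-RFI and 10.66 ± 0.10 in high-RFI pigs, a difference of −0.22 (SE 0.10, limma q = 0.60, exact permutation p = 0.0411). In 4 low-RFI pigs C8G was below every high-RFI pig. The other probe set of C8A (mean 11.11) differed by 0.08 (SE 0.11).

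CFI encodes factor I, the protease that inactivates C3b and C4b. CFI ranged from 11.07 to 11.44 with a median of 11.35 in low-RFI pigs, against 10.70 to 11.35 with a median of 11.03 in high-RFI pigs. In 3 low-RFI pigs CFI was above every high-RFI pig. The difference was 0.26 (SE 0.12, limma q = 0.589, exact permutation p = 0.0411). C4BPA, the alpha chain of the C4b-binding protein that serves factor I as a cofactor, had a difference of 0.31 (SE 0.19, limma q = 0.655), and its partner C4BPB one of 0.03 (SE 0.14).

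Vitronectin and clusterin keep the terminal complex out of host membranes. VTN averaged 13.19 ± 0.04 in low-RFI and 13.24 ± 0.02 in high-RFI pigs, and CLU averaged 12.81 ± 0.10 in low-RFI and 12.88 ± 0.09 in high-RFI pigs (SD, n = 6 each). Among the membrane regulators, CD46 differed by 0.24 (SE 0.23), CD55 by 0.16 (SE 0.12) and CD59 by −0.14 (SE 0.22). Other probe sets of a gene did not always follow the one used. Of 5 probe sets of CD46, a dimmer one differed by 0.40 (SE 0.17, limma q = 0.582) and the dimmest by −0.04, and of 6 of VTN a dimmer one differed by −0.24 (SE 0.10, limma q = 0.567) and another by 0.04.

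Spread of intensity within a class was small for the brightest secreted genes. The 12 genes with a mean above 12 had a median within-class SD of 0.09, against 0.13 for 46 other named genes above 12. The 31 genes at or below 12 had a median SD of 0.20, against 0.22 for the other named genes there. In all, 15 of the 43 genes were in the lowest 10% of SD over all named genes, and MBL2, CD46 and CD59 were in the highest 10%. VTN had the smallest SD, 0.03, and MBL2 the largest, 1.40. Leaving out the lowest 10% of SD over all pigs and the highest 10% within either class would drop 16 of the 43 genes, against 22% of all named genes.

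**Figure D3:**
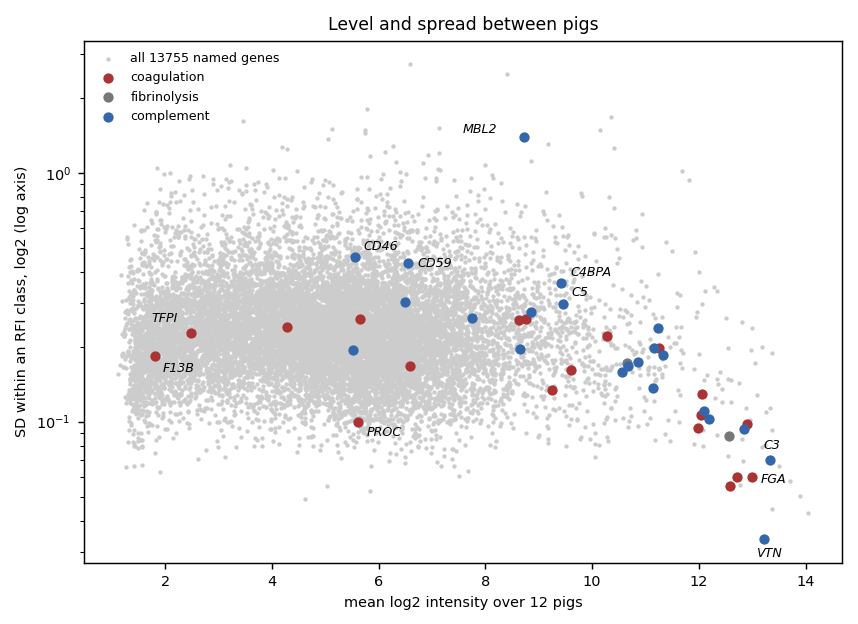
Within-class SD of each gene (y axis, log2 units, logarithmic scale) against its mean log2 intensity (x axis), with the 43 genes coloured over all 13755 named genes in grey. VTN lies at 0.03, most bright genes lie low, and MBL2 stands apart at 1.40.

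Because limma draws small variances towards a common value, the standard errors of such genes exceed those their own SDs would give. An exact two-sided permutation test of each difference was run over the 924 splits of the pigs, with a smallest possible p of 0.00216. The splits, like the limma fit, treat the pigs as unrelated, although siblings were chosen across the classes. An unadjusted p under 0.05 was found for 8 of the 43 genes, against 8.85% of all named genes. PROC (0.00866), VTN (0.0195) and C8G (0.0411) were lower in low-RFI pigs, and C6 (0.0260), F9 (0.0368), CFI (0.0411), FGB (0.0433) and KNG1 (0.0455) higher. After Benjamini-Hochberg adjustment over all named genes, the lowest p of any gene was 0.495.

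Partners of one protein or complex varied together from pig to pig in some cases. Over all 903 pairs of the 43 genes, which share the same 12 arrays, r was positive in 638 with a median of 0.20. It reached 0.91 within complement and 0.85 between coagulation and complement. Values as high as those of partners thus also occurred elsewhere, except for FGA with FGB, whose r was the highest of all pairs. Correlations were taken over 12 pigs after subtracting each class mean, for 12 pairs, with 100000 permutations per test. FGA and FGB had Pearson's r = 0.93 (adjusted permutation p = 0.00096) and Spearman's rho = 0.92 (adjusted permutation p = 0.00096). C4BPA with C4BPB (r = 0.82, rho = 0.79), FGB with FGG (r = 0.79, rho = 0.78), C1R with C1S (r = 0.79, rho = 0.77) and FGA with FGG (r = 0.77, rho = 0.76) also passed, with adjusted permutation p from 0.00512 to 0.00869 for r and of 0.0131 for rho.

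Without the 2 pigs farthest from the median of the first gene, r was 0.91 for FGA with FGB, 0.82 for FGB with FGG, 0.74 for C4BPA with C4BPB, 0.71 for FGA with FGG and 0.67 for C1R with C1S. FGA with FGB and FGB with FGG still passed (adjusted permutation p = 0.00672 and 0.0209), while the other 3 pairs, over 10 pigs, did not (adjusted permutation p from 0.0556 to 0.0827). All 5 pairs lie next to each other in the RefSeq gene order, apart from FGB with FGG, which have FGA between them. C8A and C8B, also neighbours, reached r = 0.61 (rho = 0.48, adjusted permutation p = 0.0592 and 0.190). C8B with C8G had r = −0.28 (rho = −0.47, adjusted permutation p = 0.469 for r) and C6 with C7 had r = −0.30 (rho = −0.21, adjusted permutation p = 0.402 for r). The remaining pairs computed, C8A with C8G, KNG1 with KLKB1 and PROC with PROS1, had r = −0.09, 0.52 and 0.38 and did not pass. For MBL2 and MASP1 no pooled value is given, since the pigs fell into separate ranges of MBL2.

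**Figure D4:**
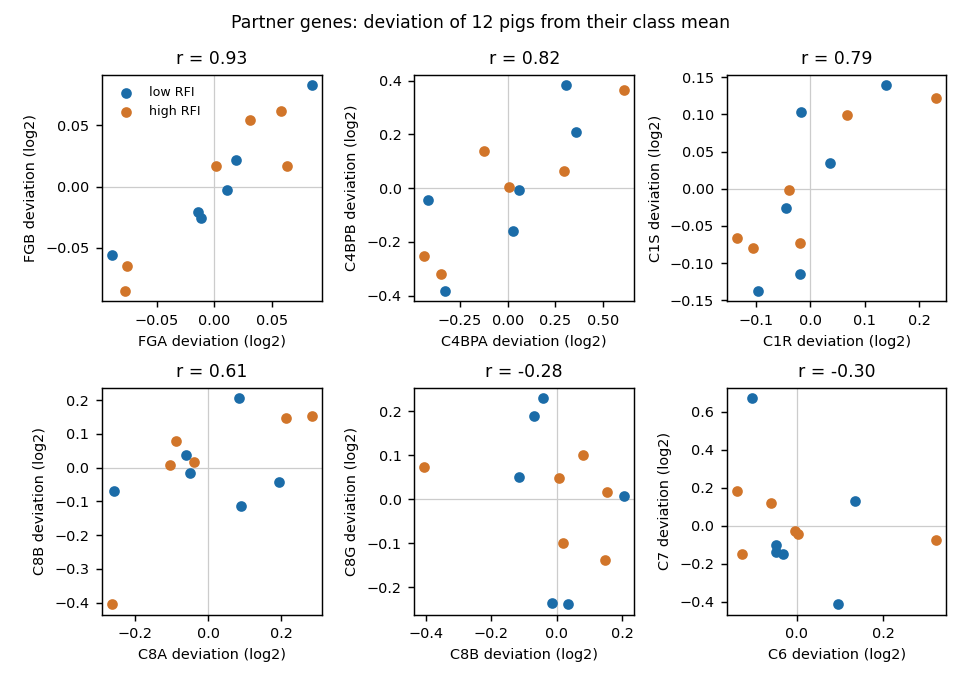
Deviations from the class mean (log2 units) of the first gene (x axes) against its partner (y axes) for 6 pairs, 1 point per pig, low RFI and high RFI marked. Points follow a line in FGA with FGB (r = 0.93), C4BPA with C4BPB (0.82) and C1R with C1S (0.79), less so in C8A with C8B (0.61), and not in C8B with C8G (−0.28) or C6 with C7 (−0.30).

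Some pigs were the highest or lowest of their class in many of the 43 genes, and the same was not counted over all named genes. P308 was the highest low-RFI pig in 17 of the 43 genes, P310 in 13, and P309 was the lowest in 16. P317 was the highest high-RFI pig in 18 genes and the lowest in 1, and P302 and P304 were the lowest in 12 each. Without P317, 2 genes of the set were called at q under 0.30 against 3.74% of all named genes, namely C6 and F11, where F11 had a difference of 0.36 (SE 0.11, q = 0.285). An unadjusted p under 0.05 was then reached by 8 genes (PROC, C5, C6 and CFI, with F11, PROS1, MBL2 and C4BPA), against 12.4% of all named genes.

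**Figure D5:**
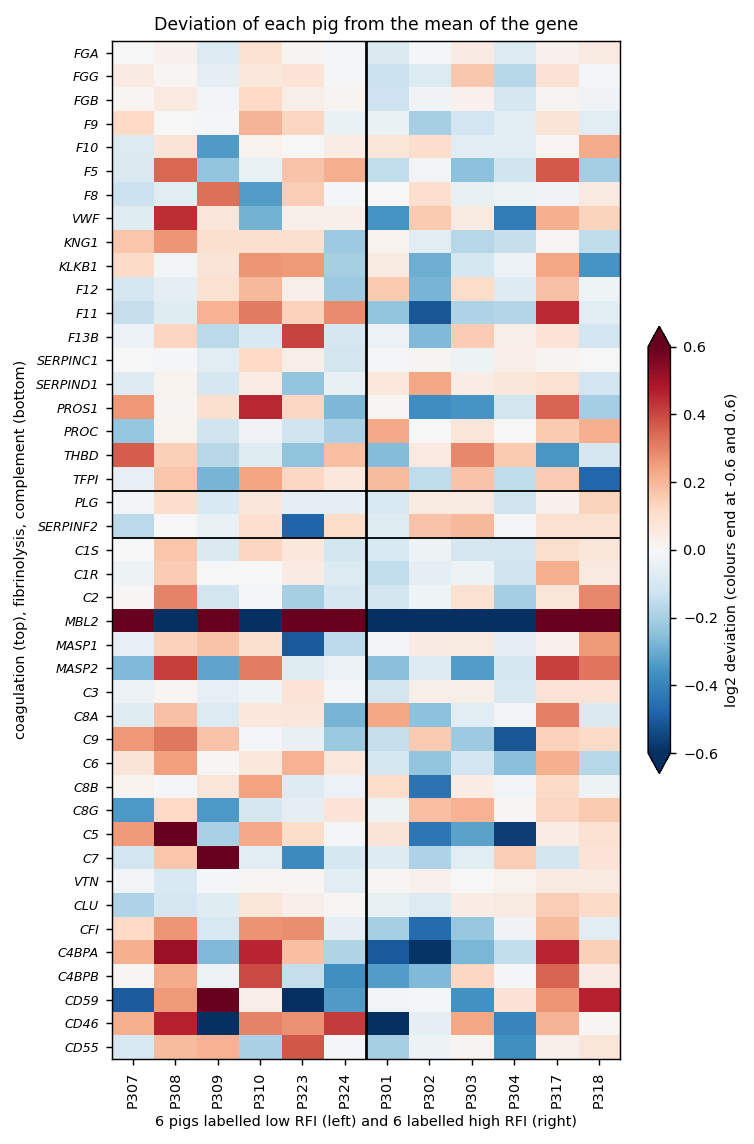
Deviation of each pig (columns, low RFI left, high RFI right) from the mean over all 12 pigs, in log2 units by colour, for the 43 genes (rows, by role). P317 is above the mean in many rows, and MBL2 has the strongest colours.

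Background probe sets with 17 to 24 G or C bases, a range picked earlier from these same data, moved with the class. Over 24 such probe sets the mean was 6.55 ± 0.08 in low-RFI and 6.69 ± 0.11 in high-RFI pigs (SD, n = 6 each). With this mean as a covariate, none of the 43 genes (0) had an unadjusted p under 0.05 in limma, against 4.82% of all named genes. The differences were then −0.22 for PROC, 0.26 for C5, 0.08 for C6 and 0.08 for CFI.

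With RFI class in the model, none of the 43 genes (0) was called between females and males at q under 0.30, against 0.0582% of all named genes. Only F11 had an unadjusted p under 0.05, against 7.08% of all named genes (3.67% higher in females), at 0.31 log2 units higher in females (limma q = 0.741). A dim probe set of C1S, not the one used, was 0.83 higher in females (limma q = 0.514). For the interaction of sex and class, CD59 (−0.60 in females, 0.31 in males) and C7 (−0.22 in females, 0.36 in males) had an unadjusted p under 0.05, against 4.25% of all named genes, and both had limma q = 0.962.

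Other genes of the same systems did not differ as called either. Of 22 further coagulation genes, which included carboxylation enzymes, platelet glycoproteins and secretory receptors, 15 were on the array, 8 higher and 7 lower in low-RFI pigs. LMAN1, the receptor that carries factors V and VIII out of the endoplasmic reticulum, ranged from 8.49 to 9.25 (median 8.72) in low-RFI pigs. In high-RFI pigs it ranged from 8.14 to 8.74 (median 8.45), a difference of 0.32 (SE 0.13, limma q = 0.563). The paper, which filtered on SD first, lists a dimmer probe set of LMAN1 among its altered transcripts. Of 10 further fibrinolysis genes, 8 were on the array, 3 higher and 5 lower, and none (0) had an unadjusted p under 0.05.

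Of 24 further complement genes, 16 were on the array, 8 higher and 8 lower. C3AR1, the receptor of the C3a peptide on myeloid cells, ranged from 5.06 to 5.86 (median 5.34) in low-RFI and from 4.18 to 5.63 (median 4.64) in high-RFI pigs, a difference of 0.75 (SE 0.22, limma q = 0.490). Beside it, the macrophage marker CD163 averaged 7.08 ± 0.63 in low-RFI and 6.40 ± 0.35 in high-RFI pigs (SD, n = 6 each), with limma q = 0.540. The mean over 6 macrophage markers ranged from 7.63 to 8.06 in low-RFI and from 7.42 to 7.79 in high-RFI pigs, with 4 markers higher and 2 lower, a median difference of 0.04 and mean intensities from 4.26 to 10.31. The part of macrophage number in the C3AR1 difference was not tested.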

How the data were processed

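Liver RNA of 12 pigs was hybridised, 1 array per pig. Scans were read with GCOS 1.1.1, and the authors deposited RMA-normalised log2 intensities of 47845 probe sets. The labels and the paper name different extraction and labelling kits. From these values, the RFI classes were compared by limma 3.58.1 in R 4.3.3 over all probe sets, with class as the only factor and no filter, and a difference was called at a Storey q-value under 0.30. Sex and its interaction with class were fitted likewise. The number of arrays limits the precision. The scripts were tested on simulated data.

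Genes were named from the platform annotation (26426 probe sets with a single symbol), and no column was left out. Genes with an unadjusted limma p under 0.05 are given with their ranges, as are, by role, the brightest genes, those with the widest differences and those whose probe sets disagree. The members and lists were chosen with earlier results of these data known. Single values were also compared by an exact two-sided permutation test. Gene order came from RefSeq. Alternatives changed the filter, adjustment, covariates, weights, variance model, scaling, sex, choice of probe set or pigs.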

Additional observations from a re-analysis of the deposited data

Results flagged for a closer look

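Each gene was checked in each class for 1 pig far from the other 5, and 6 of 86 such groups passed Dixon's 95% critical value, where chance alone flags about 5% of groups. In low-RFI pigs, KNG1 was at 11.84 in P324 with the nearest pig at 12.15, and CD46 at 4.61 in P309 with the nearest pig at 5.77. In high-RFI pigs, P317 was the highest for F5 (10.64, nearest pig 10.26) and for C6 (11.35, nearest pig 11.03). Also in high-RFI pigs, MASP1 was at 8.90 in P318 with the nearest pig at 8.70, and C8B at 10.23 in P302 with the nearest pig at 10.64.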

How the results depend on the processing

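No gene of the set was called at q under 0.30 under any alternative except without P317, where 2 were, so that leaving out 1 pig gave 0 to 2 calls. The number with an unadjusted p under 0.05 was 4, and became 0 with the GC-rich background as a covariate, 1 in females alone (CD59), 8 by the exact permutation test, and 1 to 8 when 1 pig was left out. It was 1 without P302 or P303, 2 without P304, P307, P308, P310 or P323, 7 without P324 and 8 without P317. The share of all named genes at that p also changed, from 9.13% with all pigs to 4.82% with the covariate and 3.34% in females alone. It was 6.92% without P302, 7.12% without P303, 9.71% without P324 and 12.4% without P317. Without P304, P307, P308, P310 or P323 it lay between 7.50% and 8.75%. By the exact permutation test it was 8.85%. Filtering on SD left 27 of the 43 genes and called none of them (0), against 3.33% of the 10726 named genes left. C5, C4BPA and CFI then had an unadjusted p under 0.05, against 10.7% of those named genes. PROC and C6 were kept by the filter but no longer reached that p. The median difference of the coagulation genes was 0.07, −0.017 with the GC-rich background as a covariate, and 0.03 to 0.09 when 1 pig was left out, against 0.01 to 0.09 for complement and −0.11 to −0.04 for fibrinolysis. Leaving out 1 pig gave 0.26 to 0.44 for C5, 0.19 to 0.29 for C6, 0.20 to 0.33 for CFI and −0.25 to −0.20 for PROC. Of the 5 partner pairs that passed, 2 did so without the 2 farthest pigs. The causes were not tested. PROC, C5, C6 and CFI kept their direction in every alternative run, whereas the medians of the coagulation and complement genes turned negative with the covariate (−0.024 for complement), and that of complement also in females alone (−0.032). No paired analysis was possible because the labels give no litter or sibling for a pig and no replicate number shared between the classes, and the numbers used here only follow the order of the samples.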

Other observations

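Genes that regulate the hepatic expression of clotting and complement proteins were also measured. Of 10 hepatic transcription factors on the array, 2 were higher and 8 lower in low-RFI pigs, with a median difference of −0.09, against −0.02 over all named genes. FOXA1, which opens liver enhancers, ranged from 6.50 to 7.36 (median 6.78) in low-RFI and from 7.04 to 7.63 (median 7.26) in high-RFI pigs, a difference of −0.40 (SE 0.15, limma q = 0.536). CEBPA, which drives many genes of secreted liver proteins, differed by −0.43 (SE 0.19, limma q = 0.589). HNF4A, a central regulator of hepatocyte genes that is named here after its values were seen, had the widest difference of the list, −0.50 (SE 0.24, limma q = 0.605). It was −1.04 in males and 0.05 in females, with limma q = 0.962 for the interaction.

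Of 13 acute phase genes, 7 were higher and 6 lower in low-RFI pigs, with a median difference of 0.01. IL6ST, the signalling subunit of the interleukin-6 receptor, ranged from 7.84 to 8.61 (median 8.36) in low-RFI and from 7.54 to 8.20 (median 7.80) in high-RFI pigs. In 5 low-RFI pigs IL6ST was above every high-RFI pig, and the difference was 0.47 (SE 0.14, limma q = 0.513). The paper called both IL6ST and FOXA1 at a q under 0.30 after a filter on SD. With such a filter 952 probe sets were called here, against 15 without it. SAA4, a serum amyloid A protein, differed by 0.81 (SE 0.27, limma q = 0.519) at intensities of 3.50 in low-RFI and 2.69 in high-RFI pigs, around the array medians. CRP spread from 7.72 to 12.34 in low-RFI and from 6.96 to 11.64 in high-RFI pigs. Of 7 stellate cell and fibroblast markers, 4 were higher and 3 lower in low-RFI pigs, with a median difference of 0.01, and RGS5, the one with an unadjusted p under 0.05, differed by 0.71 (SE 0.31, limma q = 0.586).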
